A study of Mus musculus with 4 samples.

Results

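The comparison described here is the interaction of genotype and striatal region in mice with a humanised Foxp2 gene: the difference between Foxp2hum/hum and wild-type mice in the dorsomedial striatum (DMS), minus the same difference in the dorsolateral striatum (DLS). All 46 libraries of the series entered it, and 19561 of the 25259 genes in the deposited table, those with a mean value of at least 10, were tested. The mice were C57BL/6 and 8 weeks old in every group, and tissue was taken from frozen brain by laser capture microdissection. There were 11 libraries of wild-type DMS, 12 of Foxp2hum/hum DMS, 11 of wild-type DLS and 12 of Foxp2hum/hum DLS. Messenger RNA was sequenced from small amounts of total RNA. Values are read counts per gene that the authors divided by 1 size factor per library, called normalised reads below. The labels give neither the sex of the animals nor which libraries came from the same animal, so the p-values measure only the spread between these libraries. In tissue of mixed cells, fewer cells of a type and less RNA per cell cannot be told apart.

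Foxp2 encodes a forkhead transcription factor linked to speech and language, and in the striatum it is made mainly by medium spiny projection neurons. These neurons carry dopamine receptors, with Drd1a typical of the direct pathway and Drd2 of the indirect pathway. Goal-directed behaviour and the early, declarative stages of learning depend on DMS, whereas habits and learned procedures depend on DLS. The interaction addresses whether the humanised allele shifts expression in one of these regions differently from the other. It is positive where the Foxp2hum/hum minus wild-type difference on the log2 scale is larger (more positive) in DMS than in DLS, and negative where it is smaller.

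The allele is present in every cell of the animal and acts wherever Foxp2 is made. The stretch of Foxp2 that the humanised allele alters lies in coding exon sequence on chromosome 6, in exon 9 of transcript Foxp2-201 in the mm9 build, at chr6:15344756-15344851 on the plus strand. The mouse reference sequence of this exon piece is shown with the affected codons in capitals, threonine first and asparagine second. In the human protein, asparagine and serine stand at these places.
Foxp2 exon 9: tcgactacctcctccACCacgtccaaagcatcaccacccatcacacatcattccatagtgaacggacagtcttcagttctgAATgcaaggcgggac
The deposited gene totals do not tell the alleles apart, so the genotype of a library rests on its label.

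Foxp2 itself was measured at 887 to 1703 normalised reads in wild-type DMS (median 1435) and at 1147 to 1784 in Foxp2hum/hum DMS (median 1287). In wild-type DLS it ran from 754 to 1449 (median 1114) and in Foxp2hum/hum DLS from 752 to 1447 (median 1019). The 4 groups overlapped. The interaction of Foxp2 was 0.09 ± 0.16 (log2 difference ± SE, here and below), with a 95% interval of -0.22 to 0.40 by limma. Foxp1, a close relative made by most striatal projection neurons, gave 0.06 ± 0.23, and Foxp4, another relative, gave 0.14 ± 0.19. Foxp3, the regulatory T cell factor, gave -0.26 ± 0.26, but reads of the overlapping gene Ppp1r3f amount to 747% of its value, so this figure cannot be assigned to Foxp3.

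Library totals over genes ran from 16.79 to 41.01 M reads (M for mega). The libraries were pooled over 3 flow cells that the labels do not assign. The library least like the rest of its group was wild-type DMS library 72 (numbers are those of the table's header), with a Pearson correlation across genes of 0.948 with their mean, and without it and wild-type DLS library 70 the count of interaction calls was also 0. Of 5 measures per library (Foxp2, the mitochondrially encoded share, the total, and summed choroid plexus and immediate early genes), none gave a detectable interaction by a two-sided permutation test, with raw p from 0.267 to 0.963 and all adjusted p at 0.963. The summed choroid plexus genes gave 0.504 on the log2 scale, and 0.798 without wild-type DMS library 18, where the raw permutation p was 0.0352. Of all single libraries left out, library 18 gave the highest value, so this p is a description. The mitochondrially encoded share averaged 20.2% and 22.4% in wild-type and Foxp2hum/hum DMS, and 22.7% and 24.8% in the DLS groups. Xist, the transcript of the inactive X, was at 1836 to 12000 normalised reads in 22 libraries in which the Y-linked Kdm5d was at 4.90 or less, and Kdm5d was at 125 to 259 in the other 24. The Xist-high libraries numbered 5 in each wild-type group and 6 in each Foxp2hum/hum group. With this split as a covariate, chosen after seeing the data, the count of interaction calls was again 0.

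No gene had a detectable interaction after adjustment. By limma, 0 of 19561 genes (0%) passed an adjusted p of 0.05, the smallest adjusted p being 0.999916 and the smallest unadjusted p 0.000871. Unadjusted p fell under 0.05 for 321 genes (1.64%), fewer than the 978 that correspond to 5% of the genes tested. Of these, 181 (0.925%) lay above 0 and 140 (0.716%) below. On whole reads, edgeR's quasi-likelihood test called 0 genes with 276 at unadjusted p under 0.05, and DESeq2 called 0 with 324. The absolute interaction had a median of 0.096 over all genes, against a median SE of 0.208. Among genes with a mean of at least 500 the median was 0.052, against a median SE of 0.141. The fit treated DMS and DLS libraries as independent. Whether its SEs and p-values are too large because the regions share animals or flow cells was not tested.

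What these 46 libraries could resolve, in a fit that treats them as independent, depended on expression. The 95% interval of the interaction lay within 1.5-fold in either direction for 11281 genes (57.7%) and within 2-fold for 15993 (81.8%). Among the 15263 genes whose mean was at least 50, these shares were 73.7% and 96.6%, and among the 6239 whose mean was at least 500 they were 92.03% and 98.3%. The share of genes at unadjusted p under 0.05 went the other way with level, from 171 of 4298 genes (3.98%) with means from 10 to 50 to 133 of 9024 (1.47%) from 50 to 500, and 17 of 6239 (0.272%) at 500 or more. An absolute interaction above 1 was estimated for 172 genes (0.879%), of which only 4 had a mean of at least 50. These 4 were the spindle protein gene Tacc3 (-1.04), the choroid plexus gene Ttr (1.71 ± 1.62), Gm10717 (-1.02 ± 1.47) and Gm15996 (1.29 ± 0.52). Long intergenic RNAs held 23 of 795 (2.89%) at unadjusted p under 0.05 and protein-coding genes 227 of 15247 (1.49%).

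Dopamine receptors were described by the role of each receptor. Drd5, the low-abundance D1-class receptor gene (ENSMUSG00000039358, a single exon on chromosome 5 at 38710748 to 38713549, mm9, plus strand), was singled out from earlier results of these data, so its values are a description. In wild-type DMS it ran from 27.5 to 66.8 normalised reads (median 43.8), and in Foxp2hum/hum DMS from 5.74 to 51.9 (median 37.3). In wild-type DLS it ran from 21.8 to 67.04 (median 50.4), and in Foxp2hum/hum DLS from 32.8 to 107 (median 55.4). The genotypes overlapped in both regions: 5 of the 12 Foxp2hum/hum DMS libraries lay below the lowest wild-type DMS library, and 5 of the 12 Foxp2hum/hum DLS libraries lay above the highest wild-type DLS library. The 5 low libraries were at 5.74, 12.5, 15.1, 21.3 and 23.8. The genotype difference was -0.63 ± 0.25 in DMS and 0.38 ± 0.25 in DLS. Their difference, the interaction, was -1.01 ± 0.35 with a 95% interval of -1.71 to -0.31 and an unadjusted p of 0.00552 by limma, which did not pass adjustment. Between regions, Drd5 differed by -1.09 ± 0.24 in Foxp2hum/hum (DMS minus DLS, adjusted p = 0.000584 by limma), while the wild-type difference of -0.08 did not pass (adjusted p = 0.878). The gap between these regional differences is the same interaction, so a pass in a single genotype is no further test of it.

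Reads of Drd5 are hard to separate from those of Gm16766, a gene on the opposite strand that overlaps its exon and amounts to 51.24% of its value. Gm16766 ran from 1.06 to 29.7 in wild-type DMS (median 25.4) and from 5.94 to 31.5 in Foxp2hum/hum DMS (median 17.2). Wild-type DLS libraries held 5.02 to 40.4 (median 28.6), and in Foxp2hum/hum DLS from 16.4 to 51.3 (median 30.3). Its interaction had the sign of that of Drd5, at -0.67 ± 0.47, and its regional difference in Foxp2hum/hum was -0.96 (adjusted p = 0.0288 by limma), against -0.29 in wild-type, which did not pass (adjusted p = 0.615). Here too, a pass in a single genotype is no test of the interaction. The part of the overlapping gene in the Drd5 values was not tested. Whole reads behind Drd5 were few, from 6 to 111 per library. With 1 library left out at a time the Drd5 interaction stayed between -1.09 and -0.82, nearest 0 without the lowest Foxp2hum/hum DMS library, and edgeR (unadjusted p = 0.0131) and DESeq2 (0.00813) both gave -0.84. These figures reuse the data from which Drd5 was singled out, so they describe the fit and are no independent evidence.

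The abundant receptors had narrow intervals around 0. Drd1a, the main D1-class receptor, ran from 2700 to 4086 in wild-type DMS (median 3628) and from 2729 to 3991 in Foxp2hum/hum DMS (median 3415). In DLS it ran from 3562 to 5053 in wild-type (median 4332) and from 3211 to 4807 in Foxp2hum/hum (median 4255). Its interaction was 0.05 ± 0.11 (95% interval -0.18 to 0.28). Drd1a was lower in DMS than in DLS in both genotypes, by -0.35 in wild-type (adjusted p = 0.00149 by limma) and -0.30 in Foxp2hum/hum (adjusted p = 0.00392).

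Drd2, the receptor of the indirect pathway, ran from 4072 to 6482 in wild-type DMS (median 4827) and from 3827 to 5313 in Foxp2hum/hum DMS (median 4654). In DLS, levels ran from 6538 to 9743 in wild-type (median 7989) and from 6161 to 9209 in Foxp2hum/hum (median 7437). The regions did not overlap in either genotype, while the genotypes overlapped in both regions. The interaction was -0.05 ± 0.11 (95% interval -0.26 to 0.17), with regional differences of -0.64 in wild-type (adjusted p = 8.51e-09 by limma) and -0.69 in Foxp2hum/hum (adjusted p = 3.72e-10). Divided by kilobases of exon, mean values were 2473 for Drd2, 1088 for Drd1a, 16.5 for Drd5 and 7.45 for Drd3. Counting covered whole gene spans on both strands, so these values can include reads from outside the exons and from overlapping genes. They are a rough guide to level only.

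Drd3, a D2-class receptor best known from the ventral striatum, was scarce. It ran from 7.17 to 38.9 in wild-type DMS (median 13.98) and from 0.962 to 29.3 in Foxp2hum/hum DMS (median 14.3). DLS values ran from 0.982 to 7.57 in wild-type (median 5.45) and from 0 to 16.7 in Foxp2hum/hum (median 5.62). It was higher in DMS in both genotypes, by 1.51 (adjusted p = 0.0113 by limma) and 1.5 (adjusted p = 0.0075). The interaction of -0.01 ± 0.61 had a 95% interval of -1.23 to 1.22, too wide to tell a 2-fold difference of genotype effects from 0.

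**Figure D1:**
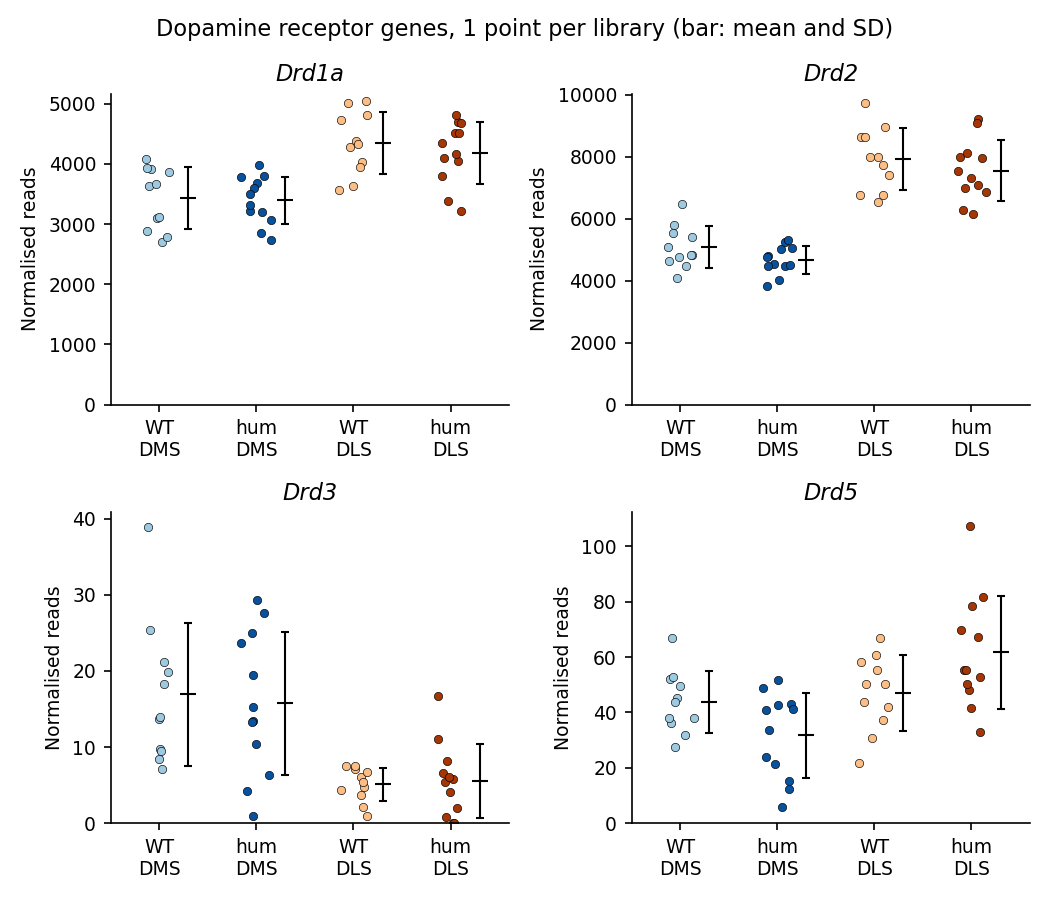
Normalised reads of 4 dopamine receptor genes (vertical axes, linear and from 0) in each library of wild-type (WT) and Foxp2hum/hum (hum) DMS and DLS; bars give the mean and SD. Drd1a and Drd2 differ by region and overlap between genotypes, while for Drd5 the Foxp2hum/hum medians are 37.3 in DMS and 55.4 in DLS with overlapping points.

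Of the 12 genes listed for dopamine receptors and monoamine handling, 11 were in the deposited table and 9 were tested. Drd4 (mean 1.37) and the dopamine transporter gene Slc6a3 (mean 2.90) were below the minimum level. Of the 9, Drd5 alone had an unadjusted p under 0.05. The vesicular transporter gene Slc18a2 gave 0.12 ± 0.20 and the synthesis enzymes Th and Ddc gave 0.09 ± 0.33 and -0.04 ± 0.24. The degrading enzymes Maoa and Maob gave 0.16 ± 0.13 and 0.00 ± 0.12. The median of the list was 0.004, beside 0.00365 over all genes.

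The 12 genes above 0 with the smallest unadjusted p (0.00229 to 0.0141, mean of at least 50) had interactions from 0.31 to 0.83, and none passed adjustment. In 11 of the 12 the genotype difference was positive in DMS and negative in DLS. In 8 of the 12 the difference in DLS was the larger of the pair in absolute size. These signs follow from choosing genes on the interaction and are given as a description. Overlap of the genotypes was checked for 111 genes, those named by interaction p, as dopamine receptor or Foxp genes, or from a list. For 0 of them did the genotypes separate completely in either region. The share over all genes tested was not counted, so this is a description.

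Siah1b, which encodes an E3 ubiquitin ligase, ran from 68.8 to 139 in wild-type DMS (median 96.1) and from 96.9 to 135 in Foxp2hum/hum DMS (median 126). The DLS libraries ran from 50.5 to 146 in wild-type (median 124) and from 75.6 to 130 in Foxp2hum/hum (median 93.9). The order of the genotypes' medians was thus opposite in the regions: 6 of 11 wild-type DMS libraries lay below the lowest Foxp2hum/hum DMS library, and 3 of 11 wild-type DLS libraries lay above the highest Foxp2hum/hum DLS library. The genotype difference was 0.34 in DMS and -0.23 in DLS, an interaction of 0.57 ± 0.18. Cmya5, a muscle protein gene, had medians of 97.3 and 139 in wild-type and Foxp2hum/hum DMS, and 139 and 116 in DLS, with an interaction of 0.67 ± 0.23. Whamm, a regulator of actin assembly and membrane transport, had medians of 85.0 and 99.2 in DMS, and 90.8 and 65.2 in DLS. Its interaction was 0.47 ± 0.17, and 6 of 11 wild-type DLS libraries lay above the highest Foxp2hum/hum DLS library.

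Myo3b, a class III myosin gene, and Mtm1, a phosphoinositide phosphatase gene on the X chromosome, had genotype differences mostly in DLS. Myo3b ran from 132 to 308 in wild-type DMS (median 184) and from 129 to 227 in Foxp2hum/hum DMS (median 160). Within DLS it ran from 372 to 761 in wild-type (median 473) and from 226 to 437 in Foxp2hum/hum (median 317). In DLS, 8 of 12 Foxp2hum/hum libraries lay below every wild-type library. Its genotype difference was -0.12 in DMS and -0.59 in DLS, and its interaction 0.47 ± 0.17. Mtm1 ran from 40.7 to 90.9 in wild-type DMS (median 59.4), and from 35.98 to 92.5 in Foxp2hum/hum DMS (median 65.4). In DLS it ran from 51.8 to 91.1 in wild-type (median 70.2) and from 26.6 to 74.9 in Foxp2hum/hum (median 50.7), where 6 of 12 Foxp2hum/hum libraries lay below every wild-type library. The differences were 0.04 and -0.57, and the interaction 0.61 ± 0.23.

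The other genes of the 12 were Arrdc4, an arrestin-domain gene (0.51 ± 0.18), Vwc2 (0.69 ± 0.26), Fbxo36 (0.65 ± 0.25) and the magnesium transport gene Magt1 (0.41 ± 0.16). Suz12, a subunit of Polycomb repressive complex 2, had the smallest of the 12 interactions at 0.31 ± 0.12, with medians of 417 and 477 in DMS and 448 and 394 in DLS. Reads of the overlapping Gm16706 amount to 25.6% of its value. Col9a3, a collagen gene (0.68 ± 0.27), overlaps Tcfl5 for 32.7% of its value. Rbpsuh-rs3 (0.83 ± 0.31) lies within Cntnap2, whose reads amount to 1670% of its value, so its reads cannot be assigned with confidence.

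The 12 genes below 0 with the smallest unadjusted p (0.00335 to 0.0179) had absolute interactions from 0.24 to 1.04, and again none passed adjustment. Here 11 of the 12 had a negative genotype difference in DMS and a positive one in DLS. Tacc3, which encodes a mitotic spindle protein, ran from 62.5 to 138 in wild-type DMS (median 86.5) and from 42.8 to 127 in Foxp2hum/hum DMS (median 82.7). In DLS, levels ran from 13.6 to 75.1 in wild-type (median 28.9) and from 23.3 to 89.96 in Foxp2hum/hum (median 56.1). The DLS libraries of wild-type mice were the low group, and 5 of 11 of them lay below the lowest Foxp2hum/hum DLS library. The genotype difference was 0.82 in DLS, and the interaction -1.04 ± 0.34. Tacc3 was higher in DMS than in DLS by 1.59 in wild-type (adjusted p = 1.44e-06 by limma), while its regional difference of 0.55 in Foxp2hum/hum did not pass (adjusted p = 0.0969). The gap between these regional differences is the interaction by which Tacc3 was chosen, so nothing is read from it.

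Tmem173, which encodes the innate immune adaptor STING, ran from 45.4 to 79.4 in wild-type DMS (median 53.9) and from 32.98 to 75.1 in Foxp2hum/hum DMS (median 42.4). DLS values ran from 20.4 to 65.4 in wild-type (median 44.8) and from 34.02 to 105 in Foxp2hum/hum (median 61.8). In DMS, 7 of 12 Foxp2hum/hum libraries were below every wild-type library, and in DLS 6 of 12 were above every wild-type library, with an interaction of -0.75 ± 0.25. Pld1, a phospholipase D gene, differed mostly in DMS, with medians of 204 and 161 there and of 169 and 175 in DLS. Its genotype differences were -0.38 and 0.06 and its interaction -0.44 ± 0.17, and 7 of 11 wild-type DMS libraries lay above every Foxp2hum/hum DMS library. Nkain1, the most abundant of the 12, had medians of 799 and 714 in DMS and of 594 and 649 in DLS, with an interaction of -0.24 ± 0.09.

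Mthfd2, a mitochondrial folate enzyme gene, gave -0.85 ± 0.31, and Tmem100 -0.43 ± 0.16. Rdm1 gave -0.69 and the kinesin gene Kif24 -0.32. The remaining 4 overlap other genes: Hspb6 (-0.50 ± 0.19) with Lin37 at 258% of its value, Cmc1 (-0.35) with Azi2 at 582%, Tm7sf3 (-0.26) with Med21 at 307%, and Ppp1r3f (-0.24) with Ccdc22 at 40.4%. For the first 3 of these, the overlapping gene holds more reads than the gene named.

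**Figure D2:**
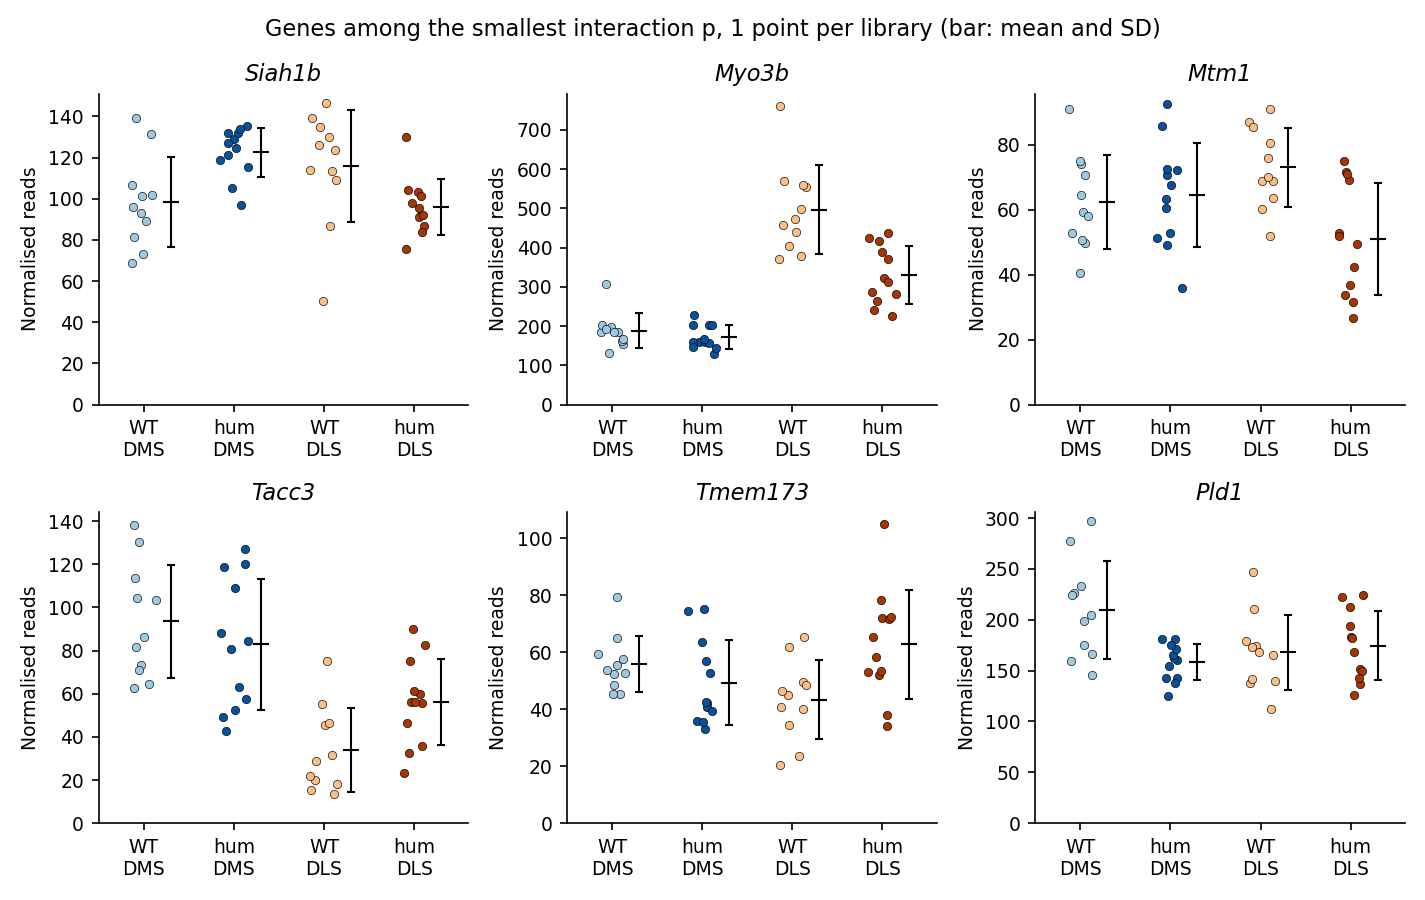
Normalised reads (vertical axes, linear and from 0) of 6 genes among the smallest unadjusted interaction p in each library of the 4 groups, with bars for the mean and SD. The upper 3 genes have positive and the lower 3 negative interactions, and the genotypes overlap in every panel.

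**Figure D3:**
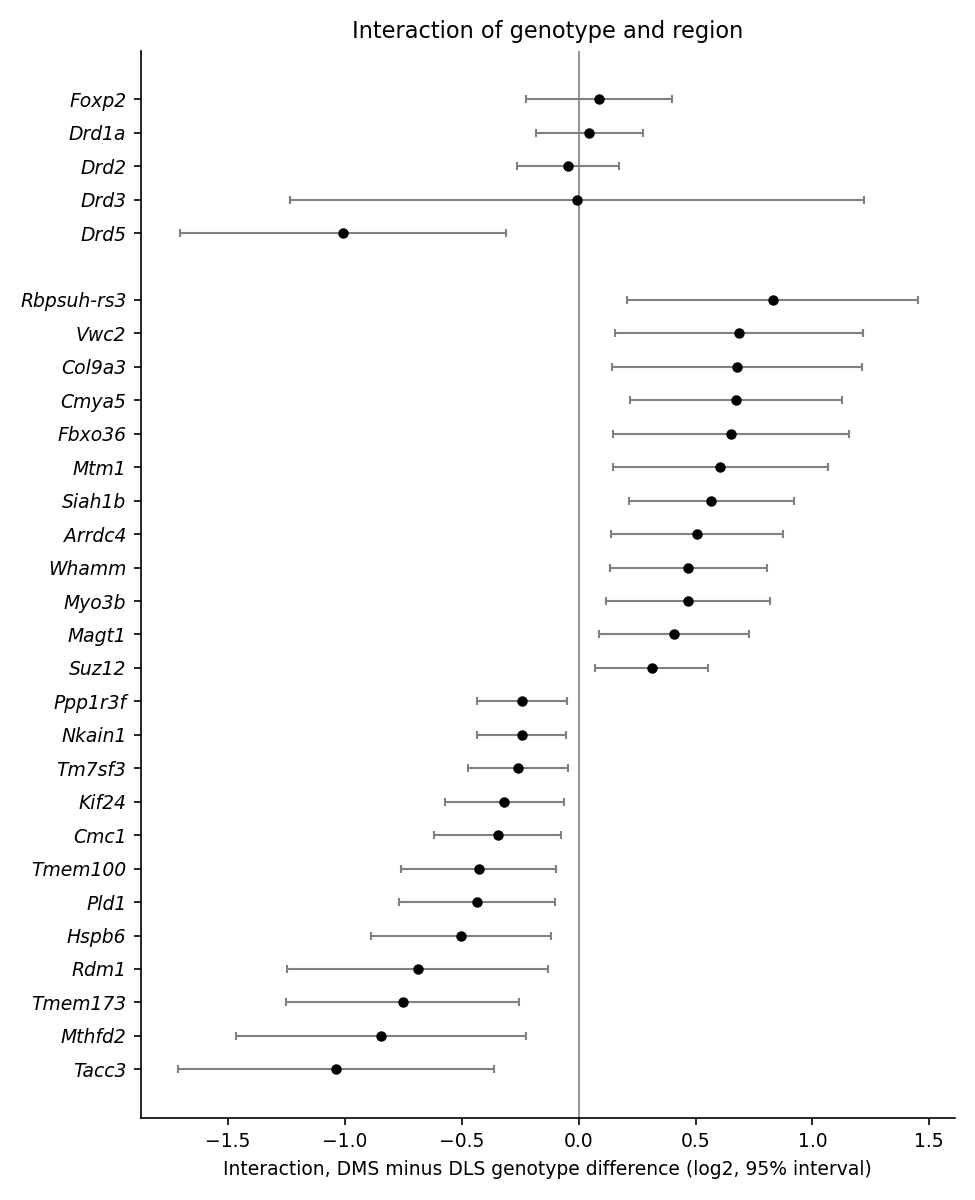
Interaction (horizontal axis, log2) with its 95% interval by limma for Foxp2, 4 dopamine receptor genes and the 24 genes of smallest unadjusted p at a mean of at least 50. The intervals of the 24 exclude 0 because the genes were chosen by that p, while those of Foxp2, Drd1a, Drd2 and Drd3 include 0.

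Within each region, no genotype difference passed adjustment by limma: 0 genes (0%) in DMS, where the smallest adjusted p was 0.955, and 0 (0%) in DLS, where it was 0.344. On whole reads, DESeq2 called 3 genes in DLS, AI115009 (-1.86), the ciliary gene Ccdc153 (3.84) and Myo3b (-0.59). Ccdc153 was near the floor in DLS, at 0 to 2.15 normalised reads in wild-type (median 0) and 0 to 27.9 in Foxp2hum/hum (median 1.67). By limma, array weights called Myo3b alone, and leaving out wild-type DLS library 77 called AI115009 alone (-1.89). Unadjusted p fell under 0.05 for 700 genes (3.58%) in DMS and for 843 (4.31%) in DLS. The lists shared 71 genes, which is 10.1% of the DMS and 8.42% of the DLS list, and 64 of the 71 had the same sign in both regions. The genotype differences in DMS and in DLS share no libraries, but the labels do not tell whether they share animals. A shared sign is thus not independent evidence. Of the 389 genes higher in DMS at unadjusted p under 0.05, 307 (78.9%) were also positive in DLS, with the median going from 0.33 to 0.11. Of the 311 lower in DMS, 251 (80.7%) were negative in DLS, with medians of -0.31 and -0.10. Starting from DLS, 277 of 388 (71.4%) and 333 of 455 (73.2%) kept their sign in DMS, with medians of 0.38 and 0.09 for the higher and -0.34 and -0.09 for the lower genes. Over all genes tested, 68.0% had the same sign in both. Across genes, the genotype differences in DMS and DLS had a Pearson correlation of 0.293 and a Spearman correlation of 0.398, and Pearson's rose to 0.543 over genes at a mean of 50 or more. Choosing genes by their p in 1 region favours medians nearer 0 in the other, so the fall in the medians is not read as a regional difference. Genes are not independent replicates, and these figures are descriptions.

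**Figure D4:**
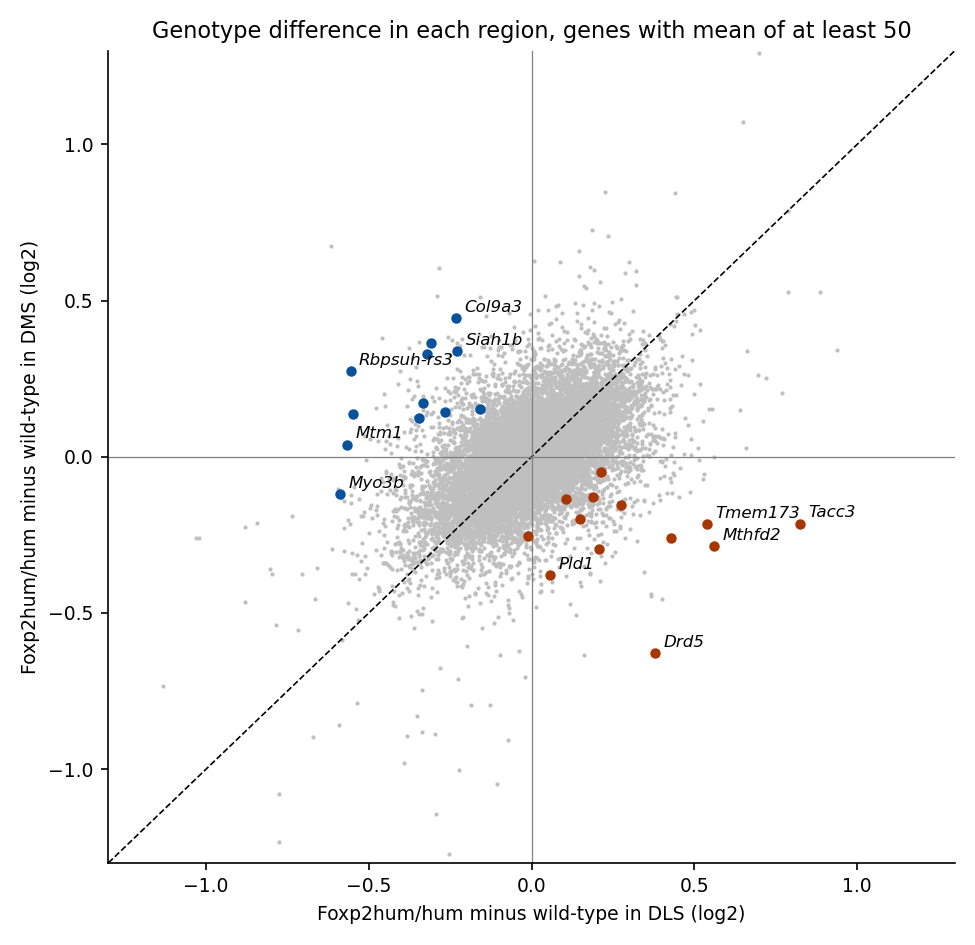
Genotype difference in DLS (horizontal axis, log2) against DMS (vertical axis, log2) for 15263 genes whose mean was at least 50, of which 3 lie outside the axes; blue and red points are the genes named above 0 and below 0, Drd5 is added, and the dashed line marks equal differences. Grey points lie along the diagonal with Pearson's r of 0.543, and most coloured points lie in the quadrants of opposite sign.

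The genes with the smallest p for genotype in 1 region were followed into the other. The residual variance behind that p and the filter on the mean came from the libraries of both regions. The choice was thus not independent of the other region. In DMS, the higher genes were Mrpl19, a mitochondrial ribosomal protein gene (0.26 in DMS, -0.004 in DLS), Snx4 (0.29 and 0.09), Zfp711 (0.66 and 0.15), Cdkn2aip (0.41 and -0.005) and Dcaf13 (0.28 and 0.10). The lower genes were Slc10a7 (-0.64 and -0.10), the lipase gene Lipe (-0.40 and -0.11), the glycogen phosphorylase gene Pygm (-0.35 and -0.07), Abtb2 (-0.34 and -0.11) and Ppp1r3f (-0.25 and -0.01). Of these 10 genes, 8 had the same sign in DLS, and every DLS difference was smaller. Choosing genes by their p in 1 region favours a smaller difference in the other, so nothing is read from the sizes. AW146020 amounts to 35.01% of the value of Mrpl19 and an overlapping gene to 12.4% of that of Lipe.

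In DLS, the higher genes were Tmem38b (0.42 in DLS, 0.07 in DMS), Tacc3 (0.82 and -0.21), Ccdc153 (1.45 and 0.51), the calcium sensor gene Vsnl1 (0.33 and 0.21) and Giyd2 (0.40 and 0.04), which Bola2 overlaps at 290% of its value. Ccdc153 was near the floor in DLS, with means of 0.30 in wild-type and 5.17 in Foxp2hum/hum. It met the mean of at least 50 only through DMS (151 and 196). The lower genes were Myo3b (-0.59 and -0.12), Mybbp1a (-0.43 and -0.17, with Spns2 at 47.97% of its value), the forkhead gene Foxo6 (-0.47 and -0.16), the kinase gene Mak (-0.58 and -0.14) and Mtm1 (-0.57 and 0.04). Only Vsnl1 of the 10 also had an unadjusted p under 0.05 in the other region (0.0379). The 7 genes at unadjusted p under 0.05 in both regions with opposite signs were Tcfl5 (interaction 1.66), 4930469G21Rik (1.57), Mir504 (-1.71), RNaseP_nuc.8 (-1.71), Gm14378 (-1.38), Gm13112 (1.10) and 1700021J08Rik (0.84). They are named because there are only 7, after their values were seen. Mir504 and RNaseP_nuc.8 had identical interactions, so they may hold the same reads under different names, which was not tested. Tcfl5 overlaps Col9a3, so its reads cannot be assigned with confidence, and overlaps of these 7 are not otherwise marked.

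The same interaction can be read as the change of the regional difference between genotypes. DMS and DLS differed for 3377 genes (17.3%) in wild-type and for 3550 (18.1%) in Foxp2hum/hum at an adjusted p under 0.05 by limma. Called in both were 2550 genes, 75.5% of the wild-type and 71.8% of the Foxp2hum/hum calls, all with the same sign, and 18 of them had an unadjusted interaction p under 0.05. Of the genes called in wild-type alone, 65 of 827 had an unadjusted interaction p under 0.05, and of those called in Foxp2hum/hum alone, 64 of 1000, beside 1.64% of all genes tested. Choosing genes called in a single genotype favours a large interaction by construction, so nothing is read from these counts. With the ventricular markers Ttr and Ccdc153 as covariates, 258 genes differed between regions in wild-type and 348 in Foxp2hum/hum. With Ttr alone the counts were 2758 and 2279. Ccdc153 was at 27.9 or less in every DLS library and at 40.6 or more in every DMS library. As a covariate it therefore takes up the regional difference itself, and region and ventricular tissue cannot be told apart in that fit. Genes higher in DMS averaged over genotypes (3233) had a median regional difference of 0.42 and a median interaction of -0.006. Genes lower in DMS (2987) had medians of -0.34 and 0.011. Across the 753 genes with a regional difference over 2-fold, the interaction had a slope of -0.00089 on the regional difference. The median SE of the interaction over these genes was 0.465.

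Some regional markers had unadjusted p under 0.05 for the interaction. Pdyn, the prodynorphin gene of direct pathway and striosome neurons, ran from 1817 to 2681 in wild-type DMS (median 2290) and from 1893 to 2868 in Foxp2hum/hum DMS (median 2159). The DLS libraries ran from 650 to 1193 in wild-type (median 890) and from 578 to 953 in Foxp2hum/hum (median 702). The regions did not overlap. Its genotype difference was -0.01 in DMS and -0.29 in DLS, and its interaction 0.29 ± 0.12 (unadjusted p = 0.026 by limma).

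Dlk1, a Notch-family ligand gene listed with medial and ventral striatum, ran from 15.9 to 128 in wild-type DMS (median 53.2) and from 22.5 to 108 in Foxp2hum/hum DMS (median 51.4). Within DLS it ran from 1.18 to 31.9 in wild-type (median 12.8) and from 0.967 to 15.0 in Foxp2hum/hum (median 4.77). Its genotype difference was 0.02 in DMS and -1.18 in DLS, and its interaction 1.20 ± 0.50 (unadjusted p = 0.021 by limma). The DLS levels of Dlk1 rest on few reads, and its interaction ranged from 0.77 to 1.45 over the alternative settings.

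Gene lists for striatal neurons were then described by their counts and medians, beside a median of 0.00365 and 51.1% above 0 over all genes tested. Outside the genes already named and Clic6, no member of any of the 29 lists had an unadjusted p under 0.05. The Golf, cAMP and DARPP-32 cascade, which carries dopamine signals inside projection neurons, had all 18 intervals within 1.5-fold and a median of 0.014, with 12 above 0. In it Ppp1r1b, which encodes DARPP-32, gave 0.00 ± 0.11, the adenylyl cyclase gene Adcy5 0.01 ± 0.18, the G protein gene Gnal 0.03 ± 0.14 and the phosphodiesterase gene Pde10a 0.05 ± 0.22. The 14 endocannabinoid and long-term depression genes, the machinery of a form of striatal synaptic plasticity, had a median of 0.037 with 10 above 0. Among them the cannabinoid receptor gene Cnr1 gave 0.04 ± 0.15, the metabotropic receptor gene Grm5 0.09 ± 0.17 and the degrading enzyme gene Faah 0.09 ± 0.16. Direct pathway genes had a median of 0.099 (7 of 9 entries above 0) and indirect pathway genes one of 0.037 (3 of 5). The 9 direct pathway entries come from 8 symbols, since Ebf1 has 2 entries (-0.19 and 0.26).

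The synaptic lists lay near 0 as well. Medians were 0.023 for 18 ionotropic glutamate receptor genes (10 above 0), -0.033 for 20 metabotropic receptor and scaffold genes (8 above 0) and 0.054 for 19 GABA genes (15 above 0). They were 0.033 for 22 ion channel genes (13 above 0) and 0.041 for 29 axon guidance and outgrowth genes (17 above 0). The 24 tested genes of vesicle release had a median of 0.000 and 12 above 0. Within the GABA list, the synthesis enzymes Gad1 and Gad2 gave 0.05 ± 0.12 and 0.06 ± 0.15, and the vesicular transporter gene Slc32a1 gave 0.07 ± 0.15. Of 13 published FOXP2 target genes 11 were tested, with a median of -0.010 and 5 above 0. Among 17 immediate early genes, which neurons switch on with activity, the median was -0.05 with 6 above 0. Their intervals were wide, as for Fos (0.05 ± 0.68), Arc (-0.19 ± 0.46) and Egr1 (-0.06 ± 0.31).

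Of the 29 list medians, 7 kept their sign in every alternative and with every single library left out: those of the interneuron, oligodendrocyte, microglia, cortical, direct pathway, dorsolateral gradient and medial gradient lists. The signs of the other medians changed in at least 1 of these settings.

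The 11 interneuron genes had the median farthest from 0 among the neuronal lists of the striatum, at -0.18 with 2 above 0. Its member with the largest absolute value was Pvalb, the parvalbumin gene of fast-spiking interneurons, at -0.50 ± 0.28. Pvalb ran from 44.04 to 103 in wild-type DMS (median 68.4) and from 24.3 to 95.2 in Foxp2hum/hum DMS (median 44.7). In DLS it ran from 174 to 541 in wild-type (median 323) and from 160 to 604 in Foxp2hum/hum (median 275). In DMS, 6 of 12 Foxp2hum/hum libraries lay below every wild-type library. With 1 library left out at a time the list's median ran from -0.26 to -0.14.

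Regional and compartment lists gave medians of 0.10 for 3 dorsolateral gradient genes, -0.10 for 6 medial and ventral genes and 0.038 for 10 striosome and matrix markers. Of these, Oprm1, the mu opioid receptor gene that marks striosomes, gave -0.36 ± 0.26, and Calb1, a matrix marker, 0.05 ± 0.14. Among translation and respiration genes, 79 ribosomal protein genes had a median of -0.067 with 6 above 0 and ran from -0.17 to 0.12. The 82 nuclear respiratory chain genes had a median of -0.038 with 19 above 0 and ran from -0.13 to 0.87. The 37 mitochondrially encoded genes had a median of -0.039 with 12 above 0 and ran from -0.84 to 0.62. Members of such lists share libraries and move together, so the lopsided counts hold no independent evidence.

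Markers of other cell types that the captured tissue could hold were read in the same way. The projection neuron identity markers, which check the tissue label, summed to 91905 to 136500 normalised reads in DMS libraries and to 142353 to 178732 in DLS libraries, with a median interaction of 0.042 (9 of 10 above 0). The 5 tested cortical projection neuron markers had a median of -0.57 with 1 above 0. All 7 listed cortical markers summed to 115 to 613 and 104 to 389 in wild-type and Foxp2hum/hum DMS, and 70.3 to 1173 and 81.2 to 1191 in DLS. Slc17a7, the cortical vesicular glutamate transporter gene, gave -0.79 ± 0.63, with medians of 184 and 95.6 in DMS and 133 and 148 in DLS, and its groups overlapped. Whether cortical tissue in the captures bears on the negative interactions was not tested.

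The 9 tested choroid plexus and ependyma markers, which line the ventricle beside DMS, had a median of 0.17 with 5 above 0. All 12 listed markers of this kind summed to 630 to 11315 and 958 to 7607 in wild-type and Foxp2hum/hum DMS, and to 392 to 556 and 363 to 511 in DLS. Ttr, the transthyretin gene of choroid plexus, ran from 0.847 to 9582 in wild-type DMS (median 40.8) and from 1.06 to 6160 in Foxp2hum/hum DMS (median 659), against 0 to 137 and 0 to 79.7 in DLS. Clic6, a chloride channel gene listed with choroid plexus, gave 0.48 ± 0.23 (unadjusted p = 0.039 by limma), with medians of 201 and 238 in DMS and of 152 and 106 in DLS.

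Glial lists had medians of -0.11 for 13 oligodendrocyte markers with 1 above 0, -0.07 for 10 astrocyte markers with 1 above 0 (0.018 without Foxp2hum/hum DLS library 94) and -0.07 for 9 microglia markers with 2 above 0. All 13 oligodendrocyte intervals lay within 1.5-fold, as for the myelin gene Mbp (-0.23 ± 0.14) and the transcription factor gene Sox10 (0.06). Their sum ran from 94481 to 146925 and 92637 to 137079 in wild-type and Foxp2hum/hum DMS, and from 90835 to 122351 and 95593 to 122834 in DLS. Endothelial and mural markers had a median of -0.019 (5 of 10 above 0). Neuroblast markers had one of 0.061 (7 of 12 entries from 11 symbols), with Dcx at -0.04 ± 0.35 and Mki67 at 0.11 ± 0.47.

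**Figure D5:**
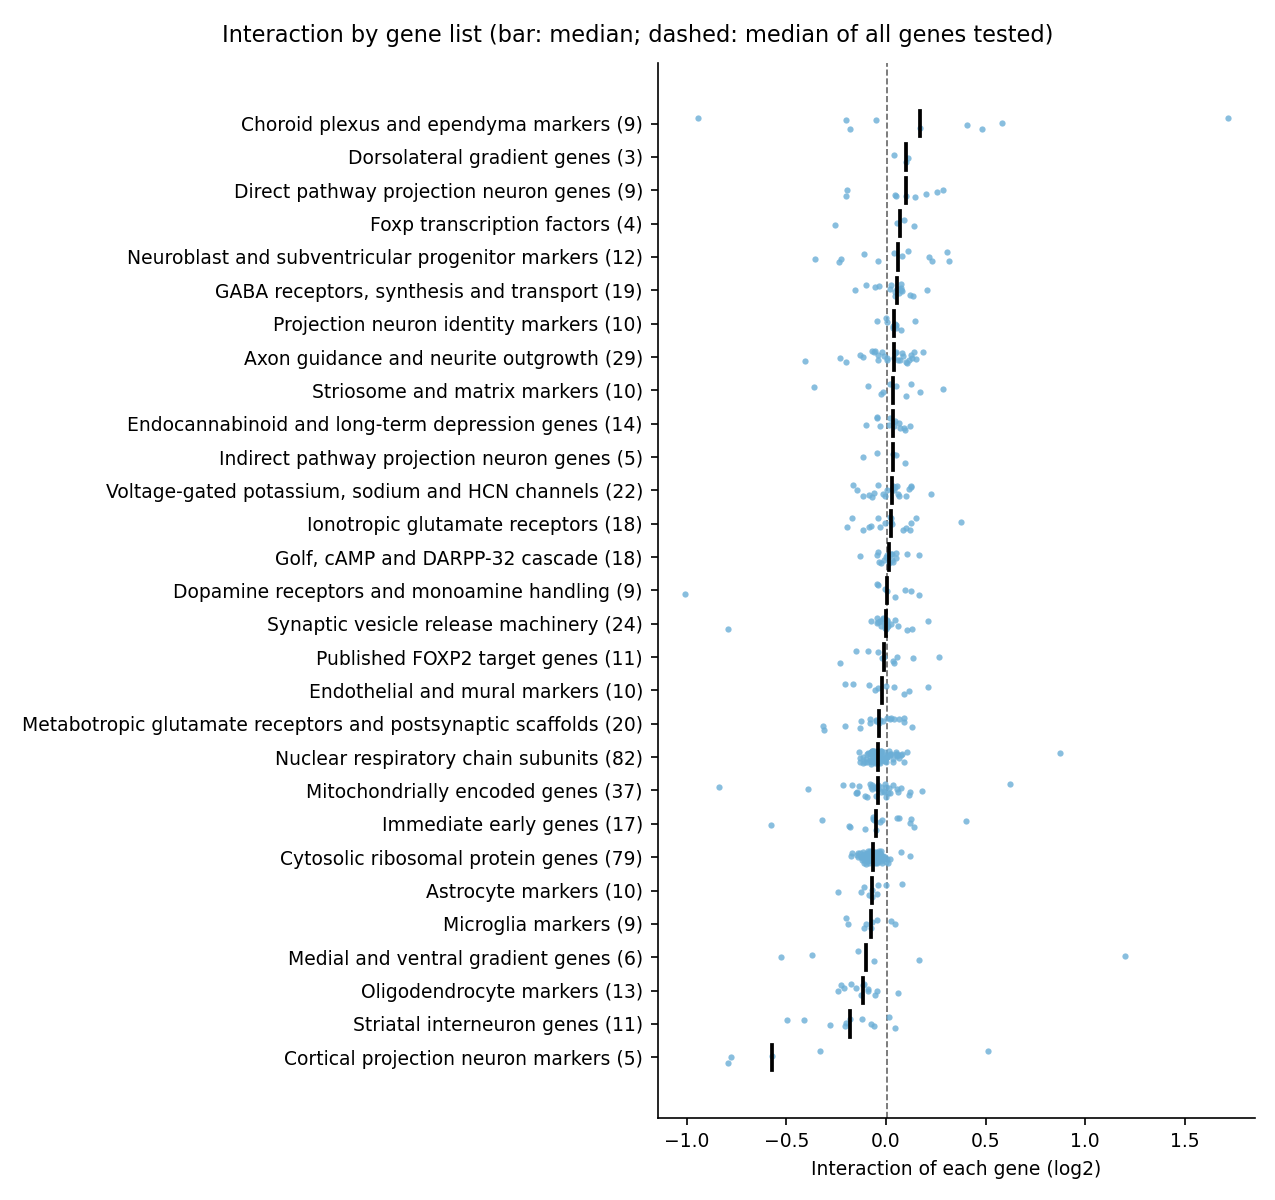
Interaction of each tested gene (points, horizontal axis, log2) in 29 gene lists, with the list median as a bar, the number of genes tested in parentheses and the median of all genes tested as a dashed line. List medians run from -0.57 for cortical projection neuron markers to 0.17 for choroid plexus and ependyma markers, and most lie within 0.1 of 0.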

How the data were processed

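The authors deposited 1 table of normalised signal per gene, read counts divided by a DESeq size factor per library, and the submitters' processing notes name mm9, TopHat 1.4.1, bedtools and DESeq. Libraries were assigned to groups by the table's first header line. Each library's values (100% of them, at a tolerance of 0.01) came out whole when multiplied by its size factor, which gave whole reads. Genes whose mean was at least 10 (19561) were fitted as log2(value + 1) by limma 3.58.1 with a trend, in R 4.3.3, as 4 group means over 46 libraries and 42 residual degrees of freedom. Fold changes are on that scale, which understates those of low genes. P-values were two-sided, adjusted by Benjamini-Hochberg over these genes, and called under 0.05. Whole reads were also tested with edgeR 4.0.16 and DESeq2 1.42.0, and surrogate variables came from sva 3.50.0. Library measures were compared with 100000 permutations, and with 10000 in the alternatives. Libraries were not tied to animals, so libraries of both regions were treated as independent. The members, tests and lists were chosen with earlier results of these data known.

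Named were the 12 genes of smallest p above and below 0 at a mean of at least 50, leaving out clone symbols, together with dopamine receptors, Foxp genes, up to 3 genes per list and 5 genes per region and direction of the genotype difference. Genes that share reads are marked where the overlap is at least 10% of the value, with GENCODE positions on mm9, since the counting covered whole gene spans on both strands. The fit was tested on simulated counts. Alternatives were other pseudocounts, filters, normalisations, weights, covariates and left-out libraries. Figures were drawn with matplotlib 3.10.9.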

Additional observations from a re-analysis of the deposited data

How the results depend on the processing

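The count of genes with an interaction at an adjusted p under 0.05 was 0 in every alternative run, with each library left out in turn included. The count at unadjusted p under 0.05 was 554 with 3 surrogate variables, 522 with array weights, 538 at a mean of at least 1 and 153 at a mean of at least 50, and 284 to 401 with 1 library left out. The share of genes whose interval lay within 1.5-fold was 66.1% with 3 surrogate variables, 63.3% with array weights, 61.1% with the mitochondrial share as covariate, 59.96% at a pseudocount of 5, 54.8% with Ttr and Ccdc153 as covariates and 56.8% without libraries 70 and 72. It was 45.1% at a mean of at least 1 and 73.6% at a mean of at least 50, where the genes tested differ, and 55.6% to 58.1% with 1 library left out. Genotype calls in DLS were 3 by DESeq2, 1 with array weights and 0 to 1 with 1 library left out. Regional calls in wild-type were 5857 with 3 surrogate variables and 258 with Ttr and Ccdc153 as covariates. In Foxp2hum/hum they were 5994 and 348, and 2279 with Ttr alone. Because Ccdc153 separates the regions completely, the fit with it cannot tell region from ventricular tissue. The cause of the other shifts was not tested.

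Signs changed for some interactions near 0. Drd3 was 0.0012 with TMM, 0.050 with Ttr as covariate, 0.12 with array weights, 0.097 at a pseudocount of 0.5, 0.15 without libraries 70 and 72, and -0.21 to 0.24 with 1 library left out. With Ttr and Ccdc153 as covariates, Drd1a was -0.025, Foxp1 -0.11, Foxp2 -0.013 and Cnr1 -0.043, and Cnr1 was -0.0062 after quantile normalisation. With 1 library left out, Cnr1 ran from -0.013 to 0.11, Foxp1 from -0.016 to 0.15 and Penk from -0.00090 to 0.087. Among library measures, leaving out 1 library moved the mitochondrial share from -0.73 to 0.73 percentage points, total reads from -2.27 to 0.695 M, immediate early genes from -0.16 to 0.024 and choroid plexus genes from 0.336 to 0.798, where the highest came without wild-type DMS library 18. The mitochondrial share was -0.281 without libraries 70 and 72. At a mean of at least 50, Drd5 was not tested. No paired analysis was possible because the labels give no replicate or animal numbers that the groups share. Depth limits genes such as Drd3, Dlk1 and Drd5, whose values rest on few reads.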
